A study of Mus musculus with 16 samples.

Results

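The early rescue of a Wdr5 knockout was set against the Wdr5 knockout left without rescue, in RNA from mouse embryoid bodies, which are floating clumps of differentiating embryonic stem cells. The comparison was chosen by the labels and takes 8 of the 16 samples of the series. These are 2 biological duplicates per group in 2 technical runs each, so that summing the runs left 4 libraries, 2 per group. In the T12h rescue, doxycycline was added to the Wdr5 KO at the time point labelled T12h to induce human WDR5. The KO has the same genotype label and received no doxycycline, and whether it carries the inducible human WDR5 is not given in the labels. The other groups only place the levels: the T48h rescue, a Wdr5 KO with doxycycline from T48h, and wild type (WT), untreated. All groups were made from embryonic stem cells that carry GFP knocked in at Rx, the eye field homeobox gene that the tables list as Rax. They were differentiated by SFEBq, in which cells reaggregate quickly and float in serum-free medium, here GMEM with 5% KSR (knockout serum replacement). Day 1 brought 2% Matrigel, an extract of basement membrane, and RNA comes from day 6.

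The series title names a single KO clone, clone 3, so the T12h rescue and the KO share whatever else sets that clone apart. Doxycycline was given to the rescue and not to the KO, so an effect of the drug itself cannot be told apart from that of WDR5. Against WT, the rescue differs in the knockout clone, doxycycline and induced human WDR5 at once, and their parts cannot be told apart. Whether duplicates are separate cultures is not stated in the labels, and p-values then reflect library-to-library spread that could be technical. In bulk RNA, fewer cells of a type and less RNA per cell cannot be told apart.

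WDR5 is a WD40-repeat protein at the core of the COMPASS/MLL complexes, which methylate lysine 4 of histone H3 at promoters and enhancers, and it also serves in other chromatin complexes. In SFEBq culture, embryonic stem cells leave pluripotency and form neuroectoderm, part of which becomes eye field. Aggregates of this kind can also hold cells with epidermal, mesodermal or endodermal genes.

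The libraries held 53298381 and 45208418 counts in named genes for the T12h rescue, against 65687435 and 35685689 for the KO. Loci without a gene name took 4.73% and 3.198% of the counts in the T12h rescue, against 3.157% and 3.164% in the KO. Levels are CPM, counts relative to a library total, after scaling to a common library size, given for replicates a and b. A gene is said to rise or fall where its adjusted p was under 0.05 (edgeR quasi-likelihood test, Benjamini-Hochberg adjustment over 16130 genes). Fold changes are log2 of the T12h rescue over the KO, ± SE where given. This SE is the absolute log2 fold change divided by the square root of the test's F statistic, not a separate estimate.

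Wdr5 (chromosome 2, 27515146 to 27536538 on mm10) stood at 329 and 337 CPM in the T12h rescue, against 32.5 and 28.4 CPM in the KO. The libraries of the groups lay far apart, with a log2 fold change of 3.45 ± 0.08 (edgeR's adjusted p = 2.97e-12). Reads of human WDR5 that aligned to the mouse gene would be part of these values. Six6, a homeobox gene of retina and hypothalamus, stood at 309.6 and 335 CPM in the T12h rescue, against 1.26 and 0.917 CPM in the KO, a log2 fold change of 8.15 ± 0.14 (edgeR's adjusted p = 2.90e-13). Rax stood at 223 and 215 CPM in the rescue, against 0.8200 and 0.755 CPM in the KO, and any reads of the knock-in allele that aligned there count towards it. Fgf5, a ligand made by primed pluripotent cells, lay the other way, at 0.796 and 0.837 CPM in the rescue, against 98.6 and 82.4 CPM in the KO. Mdm2, which restrains p53 and is itself a p53 target, stood at 87.9 and 102 CPM in the rescue, against 488 and 459 CPM in the KO. No library of a group reached the range of the other for any of these 5 genes, which was so for 83.3% of all genes tested and therefore does not set them apart. Set against WT, Six6 was higher in the rescue by a log2 fold change of 0.66 and Fgf5 lower by -1.81, while Rax and Mdm2 did not pass (edgeR's adjusted p = 4.85e-04, 8.34e-05, 0.2497 and 0.272).

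**Figure D1:**
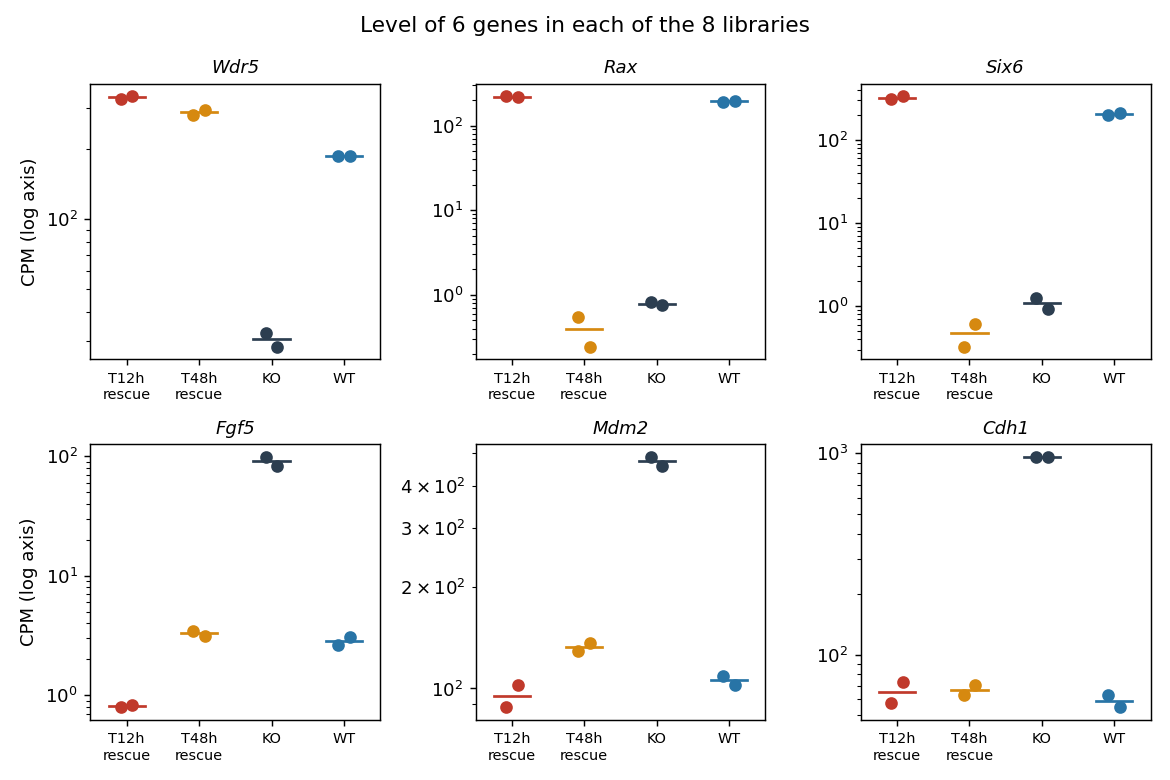
Level of Wdr5, Rax, Six6, Fgf5, Mdm2 and Cdh1 in CPM on a log axis, with each library of the T12h rescue, the T48h rescue, the KO and WT as a point. The T12h rescue lies apart from the KO for all 6 genes, with Rax at 219 CPM on average in the rescue and 0.788 CPM in the KO.

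The rescue differed from the KO across much of the transcriptome. Of 16130 genes tested, 10459 passed, which is 64.8%. Of these, 5284 were higher in the rescue (32.8% of those tested) and 5175 lower (32.1%), and the median log2 fold change over all genes tested was -0.01. Counts of list members given below are to be read beside these shares. At least a 2-fold difference was fitted for 2457 of the higher genes (15.2%) and 3129 of the lower genes (19.4%). The balance shifted with size. Below 1.5-fold there were 1563 higher and 1195 lower genes, whereas from 16-fold up there were 293 higher and 798 lower. From 64-fold up there were 96 higher and 305 lower. By a rule set after the values were seen, 26 genes were at 1 CPM or more in both rescue libraries and under 0.1 CPM in both KO libraries, and 155 genes were the reverse. Of the 26 genes, 20 were at 1 CPM or more in both WT libraries and 4 in both T48h libraries. The 26 include additional loci of the symbols Lats1, Rb1 and Prkg1, with T48h means of 4.29, 5.61 and 2.89 CPM. Of the 155 genes, 60 were under 0.1 CPM in both WT libraries and 68 in both T48h libraries. Against WT, 14.0% of genes passed in the T12h rescue, with 131 higher and 404 lower by at least 2-fold, and against the T48h rescue 50.2% passed.

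**Figure D2:**
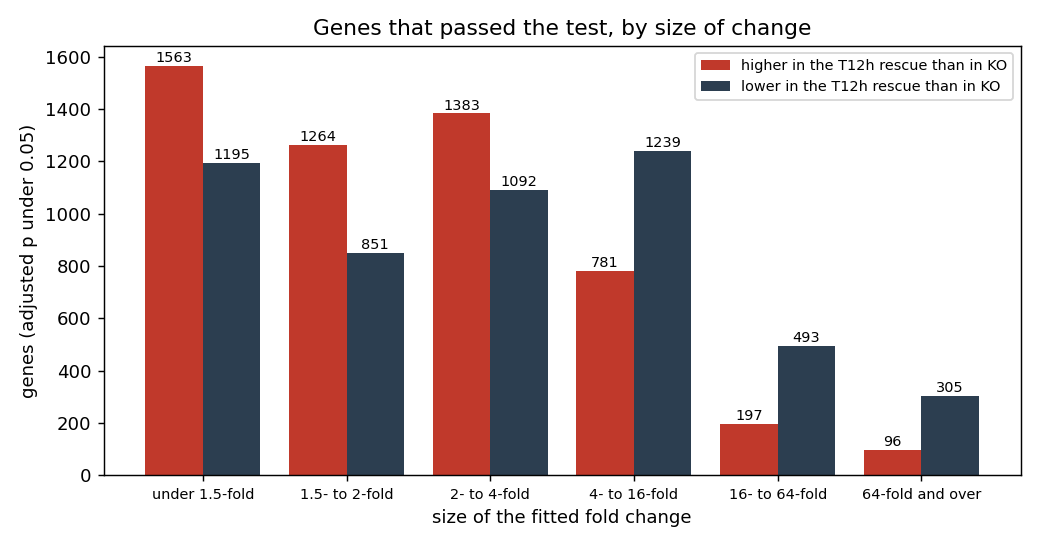
Number of genes past the test by size of the fold change between the T12h rescue and the KO, with bars from 0 for genes higher and genes lower in the rescue. Higher genes are the more numerous up to 4-fold and lower genes from 4-fold up, with 96 and 305 genes at 64-fold and over.

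Genes of the eye field and optic vesicle were higher in the rescue as a group. Of 30 tested genes 25 rose and 2 fell, and their median log2 fold change was 5.74. Lhx2, a LIM homeobox gene needed to form the optic vesicle, stood at 397 and 413 CPM in the rescue, against 2.96 and 1.38 CPM in the KO. Aldh1a3, an enzyme that makes retinoic acid in the eye, stood at 165 and 157 CPM in the rescue, against 0.922 and 0.971 CPM in the KO. Pax2, a paired-box gene of the optic stalk, stood at 204 and 191 CPM in the rescue, against 5.84 and 5.61 CPM in the KO. All 3 were higher in the rescue, with log2 fold changes of 7.44, 7.41 and 5.10. Vax1 and Vax2, homeobox genes of the ventral eye, rose by 7.27 and 6.85 and Foxd1, of the temporal retina, by 7.48. The forebrain genes Fezf1 and Fezf2 rose with them, by 7.44 and 6.84.

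Several of these genes did not stand at the WT level. Vax2 had 85.8 and 81.1 CPM in the rescue, against a WT mean of 23.8 CPM, and Foxd1 had 56.2 and 59.4 CPM in the rescue, against 18.5 CPM in WT. Both were above WT, by log2 fold changes of 1.81 and 1.64 (edgeR's adjusted p = 1.79e-04 and 1.39e-05). Zic1, of the dorsal neural tube, had 7.79 and 6.85 CPM in the rescue, against 0.4100 and 0.755 CPM in the KO, and was below its WT mean of 41.8 CPM (edgeR's adjusted p against WT = 7.65e-05). The 2 listed genes that fell against the KO were Tbx3 and Aldh1a1, by -1.66 and -1.66. Markers of later retinal cells and pigment epithelium stayed low. Crx, a factor of photoreceptor precursors, had 1.89 and 2.29 CPM in the rescue, against 0.161 and 0.0809 CPM in the KO. Of 13 such genes tested 2 rose and 5 fell, so that 53.85% passed, against 64.8% of all genes. Together they summed to 16.6 and 17.1 CPM in the rescue, against 33.8 and 34.1 CPM in the KO.

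The 12 largest increases were Nkx2-1, Kcnip1, Nlgn1, Six6, Rax, Pax6, Ndnf, Nr2e1, Six3os1, Lmo3, Lrrtm3 and Six3. Nkx2-1, a homeobox gene of hypothalamus and ventral forebrain, had 9.88 and 9.89 CPM in the rescue, against 0 and 0.02698 CPM in the KO. The KO value rests on 1 count, and the ratio of 1042 has a 95% counting interval of 186.5 to 41190. Kcnip1, which encodes a potassium channel interacting protein, had 19.1 and 20.99 CPM in the rescue, against 0.0879 and 0 CPM in the KO. Nlgn1, which encodes the synaptic adhesion protein neuroligin, had 48.3 and 50.8 CPM in the rescue, against 0.146 and 0.162 CPM in the KO. Besides the homeobox genes, this group therefore includes genes of synapses and membrane excitability. Lrrtm3, which encodes another synaptic adhesion protein, had 8.88 and 10.5 CPM in the rescue, against 0.0439 and 0.05396 CPM in the KO. Nkx2-1, Kcnip1 and Lrrtm3 were also above WT, by log2 fold changes of 2.07, 1.37 and 1.61 (edgeR's adjusted p = 0.00173, 0.0216 and 0.0106). Among genes named after their values were seen, Foxe3, a forkhead gene of the lens, had 4.42 and 3.35 CPM in the rescue and 0 counts in the KO, at least 138-fold higher in the rescue against a floor of 3 counts over the KO libraries. Epo, which encodes erythropoietin, had 3.498 and 4.604 CPM in the rescue, against 0.0293 and 0 CPM in the KO.

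Neural progenitor genes were divided. Of 30 tested genes 14 rose and 9 fell (10 with RLE or upper-quartile scaling), with a median of 0.58. Sox11, a factor of neural progenitors and young neurons, had 844 and 889 CPM in the rescue, against 140.2 and 129 CPM in the KO. Msi1, an RNA-binding protein of neural stem cells, had 320.1 and 285 CPM in the rescue, against 26.6 and 23.9 CPM in the KO. Dach1, a factor of the retinal determination network, had 66.3 and 74.2 CPM in the rescue, against 3.92 and 2.995 CPM in the KO. All 3 rose, by log2 fold changes of 2.69, 3.58 and 4.32. Among the members known from midbrain, hindbrain or dorsal neural tube, picked after their values were seen, not all fell. En2, of the midbrain-hindbrain boundary, had 0.592 and 0.3304 CPM in the rescue, against 10.8 and 13.4 CPM in the KO. En1, Gbx2, Irx3 and Pax3 fell too, by -4.09, -3.83, -3.98 and -2.37. Pax7 had a log2 fold change of -0.98 and did not pass (edgeR's adjusted p = 0.0904), and Egr2, a factor of the hindbrain, rose by 3.67. En1 and En2 were also below WT, by -3.14 and -3.19 (edgeR's adjusted p = 0.00133 and 1.86e-04).

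Of 20 genes of postmitotic neurons 3 rose and 8 fell, or 3 and 9 with RLE or upper-quartile scaling. The share that passed was 55.0%, against 64.8% of all genes. Syt1, the calcium sensor of synaptic vesicles, had 30.1 and 34.7 CPM in the rescue, against 1.25 and 1.21 CPM in the KO. Nefl, a neurofilament gene, had 9.902 and 12.1 CPM in the rescue, against 59.8 and 58.6 CPM in the KO. The summed level of the list was 125 and 131 CPM in the rescue, against 276 and 271 CPM in the KO. Map2 and Elavl4, the other members that rose, did not pass when a library was left out. Map2 had edgeR's adjusted p = 0.118 without T12h replicate a and 0.0772 without KO replicate b, and Elavl4 had 0.0632 without KO replicate a.

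Pluripotency genes were lower in the rescue. All 16 tested genes of the naive list fell, with log2 fold changes of -5.11 to -1.66 and a median of -3.38. Esrrb, an orphan receptor of the naive network, had 4.76 and 5.97 CPM in the rescue, against 65.8 and 74.8 CPM in the KO. Zfp42, known as Rex1, had 6.61 and 6.39 CPM in the rescue, against 60.6 and 65.2 CPM in the KO. Dppa3, of naive and germ cells, had 0.278 and 0.308 CPM in the rescue, against 9.09 and 11.3 CPM in the KO. Esrrb and Zfp42 in the rescue were below WT as well, by log2 fold changes of -2.15 and -1.34 (edgeR's adjusted p = 5.56e-06 and 5.24e-05). Of 18 general and primed genes 12 fell and 4 rose. Utf1, a chromatin factor of pluripotent cells, had 5.55 and 4.604 CPM in the rescue, against 82.1 and 86.6 CPM in the KO. Those that rose were Sall2, Lin28b, Otx2 and Lin28a, all of which neural cells are also known to express. Sall2, a zinc-finger factor, had 787 and 729 CPM in the rescue, against 120.4 and 126 CPM in the KO. Lin28b, which blocks maturation of let-7 microRNAs, had 397 and 407 CPM in the rescue, against 71.2 and 61.4 CPM in the KO.

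Germline genes had 0 higher and 11 lower of 16, with a median of -3.50. Piwil2, of the piRNA pathway, had 1.02 and 1.08 CPM in the rescue, against 11.1 and 11.4 CPM in the KO, and Ddx4, a germ cell helicase, had 2.15 and 2.36 CPM in the rescue, against 24.6 and 17.02 CPM in the KO. DNA methylation genes moved both ways, 7 higher and 5 lower of 14, or 6 and 6 with RLE or upper-quartile scaling. Dnmt3b, which sets new methylation marks, had 88.4 and 85.7 CPM in the rescue, against 486 and 445 CPM in the KO. Dnmt1, which copies marks at replication, had 613 and 647 CPM in the rescue, against 385 and 376 CPM in the KO. Among the enzymes that oxidise methylcytosine, Tet1 fell by a log2 fold change of -0.98, while Tet3 rose by 1.56.

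**Figure D3:**
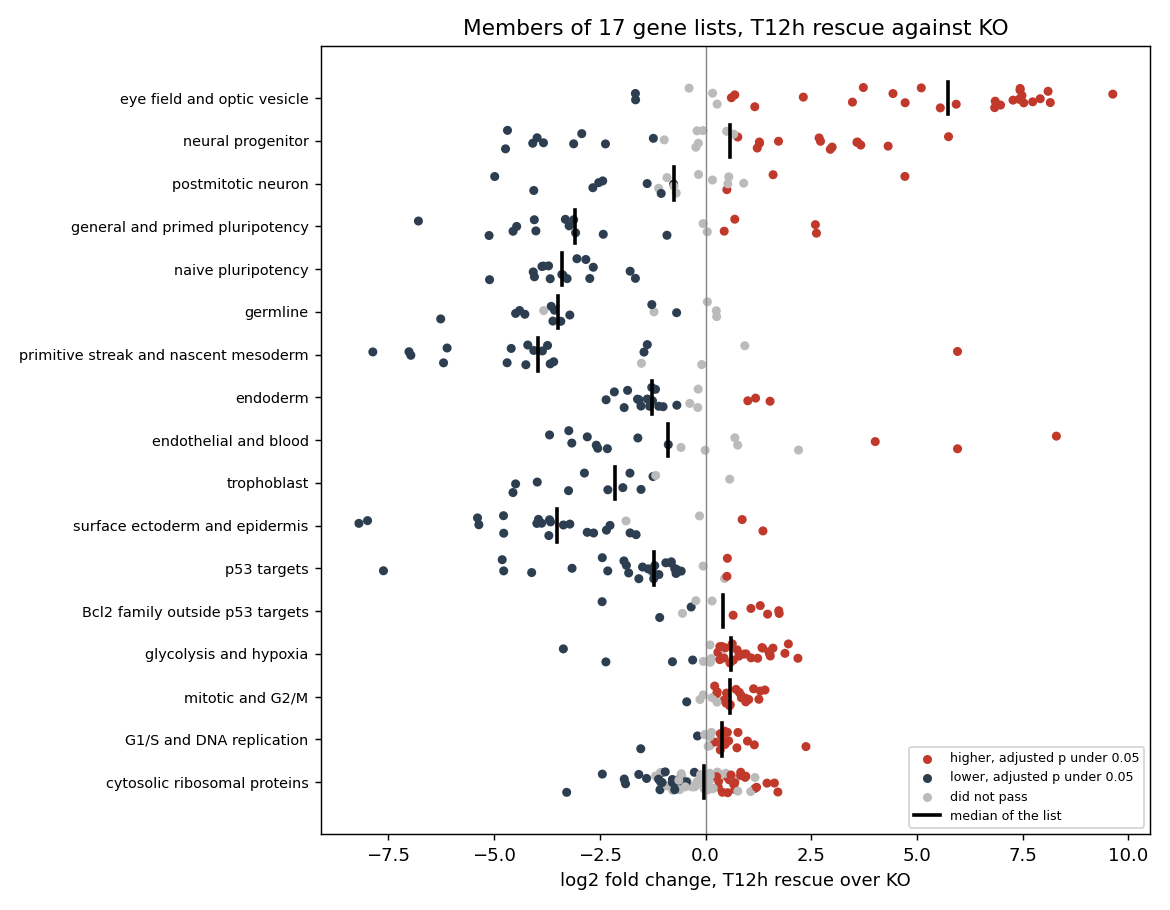
Log2 fold change of the T12h rescue over the KO for the tested members of 17 gene lists, with a point per gene and a bar at the median of each list. The eye field list has its median at 5.74 and the naive pluripotency list at -3.38, while the median over all genes tested is -0.01.

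Epidermal genes were lower in the rescue. Of 24 tested genes of surface ectoderm and epidermis 20 fell and 2 rose, with a median of -3.51. Grhl2 and Grhl3 encode grainyhead factors of surface epithelium. Grhl3 had 0.7403 and 1.300 CPM in the rescue, against 41.7 and 41.4 CPM in the KO, and Grhl2 had 1.67 and 1.34 CPM in the rescue, against 44.03 and 38.98 CPM in the KO. Krt5, the keratin of basal epidermis, had 0 and 0.0881 CPM in the rescue, against 11.8 and 13.8 CPM in the KO. Dsp, which encodes desmoplakin of desmosomes, had 36.4 and 43.5 CPM in the rescue, against 267 and 289 CPM in the KO. The list summed to 265 and 297 CPM in the rescue, against 2264 and 2297 CPM in the KO. Tfap2a and Tfap2b, which neural crest also expresses, were the members that rose, by 0.87 and 1.36. Tfap2b did not pass with limma on log2(FPKM + 1) (limma's adjusted p = 0.235). Dsp and the cell adhesion gene Cldn6 in the rescue were above WT despite their fall, by 0.75 and 0.50 (edgeR's adjusted p = 0.00118 and 0.0167).

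Trophoblast genes had 0 higher and 10 lower of 12, with Gata3 at 1.296 and 1.65 CPM in the rescue, against 12.5 and 15.4 CPM in the KO. Endoderm genes had 3 higher and 15 lower of 21. Sox17, a factor of definitive and extraembryonic endoderm, had 28.3 and 30.00 CPM in the rescue, against 144 and 153 CPM in the KO, and stayed above the WT mean of 19.98 CPM (edgeR's adjusted p = 0.00229). The list as a whole summed to 5273 and 5808 CPM in the rescue, against 13700 and 14150 CPM in the KO. Of the 3 members that rose, Afp averaged 22.4 CPM in the rescue and 9.77 CPM in the KO and did not pass with DESeq2 (adjusted p = 0.145). Cxcr4 rose by 1.52 and Apoa1 by 1.00.

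Of 20 tested genes of the primitive streak and nascent mesoderm 16 fell and 1 rose, with a median of -3.96, or -3.80 with genes at 0 counts set to their bound. Foxh1, a partner of Smad proteins in Nodal signalling, had 3.702 and 3.35 CPM in the rescue, against 57.9 and 60.4 CPM in the KO. Mixl1 and Mesp1, factors of the streak and of cardiac precursors, had 0 counts in the rescue and were at least 22.0-fold and 11.95-fold lower there against a floor of 3 counts over the group. The member that rose was Kdr, the VEGF receptor of blood vessel precursors, with 129.5 and 124 CPM in the rescue, against 2.59 and 1.19 CPM in the KO. Mesoderm lists further along were divided. Cardiac genes had 5 higher and 8 lower of 18, paraxial and mesenchymal genes 5 and 5 of 13 (4 and 5 with upper-quartile scaling), and neural crest genes 5 and 6 of 14. Ttn, the giant protein of the sarcomere, had 0.777 and 1.45 CPM in the rescue, against 28.2 and 38.9 CPM in the KO. Mef2c, a factor of heart and neurons, had 7.05 and 8.41 CPM in the rescue, against 1.44 and 2.08 CPM in the KO. Sox9, a factor of neural crest and of retinal progenitors, had 88.5 and 85.5 CPM in the rescue, against 7.28 and 8.36 CPM in the KO.

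Of 17 endothelial and blood genes 9 fell and 3 rose. Tek, a receptor of endothelium, had 5.904 and 5.68 CPM in the rescue, against 54.5 and 54.7 CPM in the KO. Cdh5, the cadherin of endothelial junctions, had 10.5 and 7.27 CPM in the rescue, against 58.4 and 45.9 CPM in the KO. Both remained above WT, by 1.17 and 1.67 (edgeR's adjusted p = 9.78e-05 and 1.56e-04). Besides Kdr, the members that rose were the embryonic globins Hbb-bh1 and Hba-x, and their level rested on a single library. Hbb-bh1 had 7.31 and 0.617 CPM in the rescue, against 0 and 0.02698 CPM in the KO, and Hba-x had 5.14 and 0.441 CPM in the rescue, against 0.264 and 0.05396 CPM in the KO. Without T12h replicate a, Hba-x had a log2 fold change of 1.42 and did not pass (edgeR's adjusted p = 0.468).

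Fibroblast markers, which would mark feeder cells, had 4 higher and 2 lower of 10, a share of 60.0% against 64.8% of all genes. The list summed to 172 and 146 CPM in the rescue, against 39.4 and 35.5 CPM in the KO. Col1a2, which encodes a chain of type I collagen, had 113 and 90.2 CPM in the rescue, against 4.83 and 5.02 CPM in the KO. Its partner chain Col1a1 had 5.35 and 4.47 CPM in the rescue, against 6.68 and 4.802 CPM in the KO, and did not pass (edgeR's adjusted p = 0.253). Dcn, a proteoglycan that defines fibroblasts, had 0 counts in the rescue, against 0.0879 and 0.324 CPM in the KO, which rest on 18 counts. Its call was lost without T12h replicate a or b or KO replicate b (edgeR's adjusted p = 0.0779, 0.067 and 0.0736) and with limma. The part of such cells in other results was not tested.

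The 12 largest decreases were Mup6, Nlrp9b, Clca3, Ltf, Krt5, Ckm, Pla2g2f, Krt15, Ccno, Them5, Nipal4 and Wnt8a. Nlrp9b, a gene of oocytes, had 0.0185 and 0.02203 CPM in the rescue, against 18.9 and 20.3 CPM in the KO. Ckm, the creatine kinase of muscle, had 0 and 0.0441 CPM in the rescue, against 6.399 and 6.83 CPM in the KO. Ltf, which encodes the milk and neutrophil protein lactoferrin, had 0.0185 and 0.02203 CPM in the rescue, against 8.13 and 7.18 CPM in the KO. The rescue values of these 3 rest on 2 counts each over the group, so the KO to rescue ratios of 962, 326 and 387 have 95% counting intervals of 266 to 7949, 89.8 to 2694 and 107 to 3204. Mup6 had 0 counts in the rescue and belongs to a family of near-identical genes, so its value is uncertain. In WT the means were 0.744 CPM for Nlrp9b, 0.0574 CPM for Ckm and 0.0148 CPM for Ltf, and Nlrp9b was lower in the rescue than in WT, at a log2 fold change of -5.03 (edgeR's adjusted p = 4.95e-05).

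Cadherins moved in opposite directions. Cdh1, which encodes E-cadherin of epithelia and pluripotent cells, had 57.5 and 73.3 CPM in the rescue, against 958 and 961 CPM in the KO, a log2 fold change of -3.88 ± 0.12 (edgeR's adjusted p = 1.70e-11). Cdh2, which encodes N-cadherin of neural epithelium, had 256 and 298 CPM in the rescue, against 36.1 and 33.4 CPM in the KO. Cdh11 had 528 and 575 CPM in the rescue, against 23.6 and 19.1 CPM in the KO. The rescue libraries were thus lower for Cdh1 and higher for Cdh2 and Cdh11. Cdh11 was also above the WT mean of 198 CPM, at a log2 fold change of 1.47 (edgeR's adjusted p = 1.32e-06). The epithelial genes Epcam, Cldn4 and Cdh3 fell with Cdh1, by log2 fold changes of -3.71, -4.23 and -3.65. Zeb1, a repressor of Cdh1, had 119.8 and 137 CPM in the rescue, against 8.42 and 9.98 CPM in the KO. Not every mesenchymal gene went with Zeb1. Vim and Snai1 fell, by -1.24 and -0.75, and the list had 8 higher and 10 lower of 20.

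The 8 largest losses in CPM were all genes of secreted matrix proteins apart from Lamp1 and Ctsd, which encode lysosomal proteins. Col4a1, a chain of type IV collagen, had 4725 and 4887 CPM in the rescue, against 9669 and 10140 CPM in the KO. Lama1, a chain of laminin-111, had 1593 and 1735 CPM in the rescue, against 4813 and 5100 CPM in the KO. Lamp1, a membrane protein of lysosomes, had 602 and 627 CPM in the rescue, against 1726 and 1730 CPM in the KO. The other 5 of the 8 largest losses were Col4a2, Lamc1, Sparc, Lamb1 and Ctsd, with log2 fold changes of -1.20, -1.41, -1.18, -1.25 and -1.86. Col4a1, Lama1 and Lamp1 nonetheless stayed above WT in the rescue, by 1.03, 0.77 and 0.82 (edgeR's adjusted p = 3.43e-06, 2.17e-04 and 1.11e-05). Parietal endoderm is a known source of these matrix proteins. The endoderm list, which includes Lama1, Lamb1 and Sparc, was lower in the rescue as given above, and its part in this result was not tested. Nid1, a linker of laminin and collagen named after its values were seen, had a smaller log2 fold change of -0.26, which did not pass without T12h replicate a (edgeR's adjusted p = 0.169) or KO replicate b (0.0558). Lamp2, another lysosomal membrane gene named after its values were seen, rose by 0.28 and did not pass without T12h replicate b (edgeR's adjusted p = 0.0578) or with limma.

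The largest gains in CPM were Mest, Igfbp5, Tubb5, Eef2, Nedd4, Shisa2, Gnas and Sfrp1. Mest, an imprinted gene, had 5133 and 5442 CPM in the rescue, against 640.0 and 630.0 CPM in the KO. Igfbp5, a secreted protein that binds insulin-like growth factors, had 3736 and 3860 CPM in the rescue, against 103 and 98.5 CPM in the KO. Shisa2, which restrains Wnt and FGF receptors, had 903 and 802 CPM in the rescue, against 34.3 and 31.3 CPM in the KO. For each of the 3 the groups lay well apart, with log2 fold changes of 3.06, 5.24 and 4.70. Igfbp5 was above WT too, by 1.69 ± 0.06 on the log2 scale, against a WT mean of 1175 CPM (edgeR's adjusted p = 2.83e-08). Tubb5, a tubulin, and Eef2, an elongation factor, are abundant in both groups and rose by 1.01 and 0.76.

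**Figure D4:**
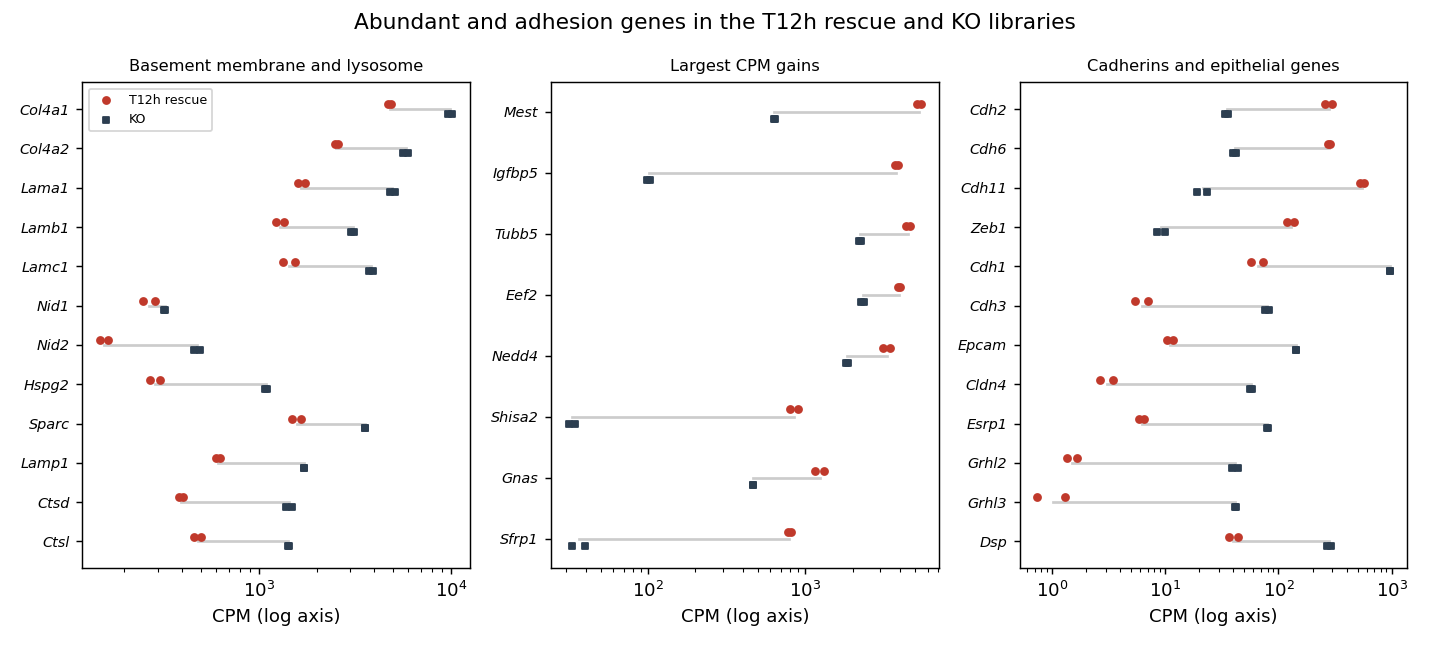
Levels in CPM on a log axis for basement membrane and lysosome genes, for the genes with the largest gains, and for cadherins and epithelial genes, with circles for the libraries of the T12h rescue and squares for those of the KO. Cdh1 averages 65.4 CPM in the rescue and 959.8 CPM in the KO, and Cdh2 277 CPM in the rescue and 34.8 CPM in the KO.

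Wnt genes differed by member. Of 41 tested genes 16 rose and 17 fell (18 with RLE or upper-quartile scaling). Among the ligands, Wnt6 had 0.204 and 0.2203 CPM in the rescue, against 37.8 and 35.4 CPM in the KO. Wnt8a, known from the early streak, had 0.185 and 0.1101 CPM in the rescue, against 38.3 and 25.8 CPM in the KO. Wnt10a had 0 counts in the rescue and was at least 94.4-fold lower there against a floor of 3 counts over the group. Other ligands went up, as Wnt5b had 78.8 and 69.00 CPM in the rescue, against 2.09 and 2.02 CPM in the KO. Among feedback genes that Wnt signals induce, Sp5 had 0.999 and 1.19 CPM in the rescue, against 29.1 and 29.7 CPM in the KO. Notum and Rnf43 fell by log2 fold changes of -4.16 and -3.31, while Lgr5 and Nkd2 rose by 2.52 and 2.56. Of 10 frizzled receptor genes in the list 6 rose and 2 fell.

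Fzd3 had 712 and 718 CPM in the rescue, against 26.6 and 22.8 CPM in the KO. Fzd5, a receptor of the eye field, had 518 and 488 CPM in the rescue, against 65.5 and 64.96 CPM in the KO. Fzd2 and Fzd8 rose by 1.65 and 3.07, whereas Fzd10 and Fzd7 fell, by -3.69 and -0.30. The genes of the secreted inhibitors Sfrp1 and Sfrp2 rose as well. Sfrp1 had 774 and 806 CPM in the rescue, against 39.96 and 32.9 CPM in the KO, and Sfrp2 had 443 and 437 CPM in the rescue, against 43.6 and 35.3 CPM in the KO. Sfrp1 was also above WT, by 0.81 (edgeR's adjusted p = 4.82e-05).

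FGF genes were mostly lower, with 4 higher and 17 lower of 27 and a median of -1.51. Beside Fgf5, the ligand Fgf8 had 0.666 and 0.815 CPM in the rescue, against 10.3 and 11.2 CPM in the KO. The ETS factors that FGF signals induce were lower too. Etv4 had 0.796 and 1.67 CPM in the rescue, against 28.3 and 25.7 CPM in the KO, and Etv5 had 12.6 and 12.6 CPM in the rescue, against 119 and 116 CPM in the KO. The feedback inhibitors Spry4, Dusp4 and Dusp6 fell by log2 fold changes of -3.01, -1.91 and -1.07. Etv4, Etv5 and Spry4 were below WT as well, by -1.92, -1.22 and -1.39 (edgeR's adjusted p = 7.00e-04, 4.43e-05 and 0.00249). Fgfr1 had 328 and 309 CPM in the rescue, against 321 and 319.9 CPM in the KO, and did not pass (edgeR's adjusted p = 0.911), while the receptor gene Fgfr3 rose by 2.01.

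Hedgehog genes were mostly higher, with 12 higher and 3 lower of 18 and a median of 1.15. Gas1, a co-receptor, had 131 and 128 CPM in the rescue, against 19.2 and 18.6 CPM in the KO. Smo, the signal transducer, had 352 and 318 CPM in the rescue, against 108 and 116 CPM in the KO. Gli1, a factor that is itself a target of the pathway, had 40.7 and 34.9 CPM in the rescue, against 14.3 and 14.9 CPM in the KO. Gli1 and the feedback target Hhip were also above WT, by log2 fold changes of 1.30 and 1.23 (edgeR's adjusted p = 7.66e-05 and 0.00625). The ligand genes did not follow. Ihh and Dhh fell, by -1.05 and -4.31, and Shh had 0.407 and 2.07 CPM in the rescue, against 0.278 and 1.02 CPM in the KO, and did not pass (edgeR's adjusted p = 0.418).

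Retinoic acid genes had 8 higher and 9 lower of 19. Crabp1, which binds retinoic acid in the cytoplasm, had 449 and 498 CPM in the rescue, against 5.52 and 3.696 CPM in the KO, and was above the WT mean of 134 CPM (edgeR's adjusted p = 1.32e-06). Cyp26a1, which breaks retinoic acid down, had 18.4 and 18.6 CPM in the rescue, against 126 and 124 CPM in the KO. Rarg, a nuclear receptor for it, had 16.5 and 14.3 CPM in the rescue, against 76.5 and 71.3 CPM in the KO. The synthesis genes of the list lay on both sides, as Aldh1a3 rose and Aldh1a1 fell. Crabp2, which encodes another binding protein, rose by 2.91. Nodal and BMP genes had 10 higher and 16 lower of 31, or 10 and 19 with RLE or upper-quartile scaling. Gdf3, a ligand related to Nodal, had 0.814 and 0.815 CPM in the rescue, against 27.4 and 31.6 CPM in the KO. Bmpr1b, a BMP receptor, had 31.8 and 32.5 CPM in the rescue, against 0.952 and 0.701 CPM in the KO. Of BMP targets, Id2 rose by 2.46 and Msx1 and Msx2 fell, by -2.02 and -1.54. Notch genes had 6 higher and 6 lower of 18, or 5 and 7 with RLE or upper-quartile scaling. The share that passed, 66.67%, was near the 64.8% of all genes. Hes1 and Hes5, repressors that Notch induces in progenitors, rose by 2.31 and 5.75, and the ligand genes Jag1 and Jag2 fell, by -0.99 and -2.53.

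**Figure D5:**
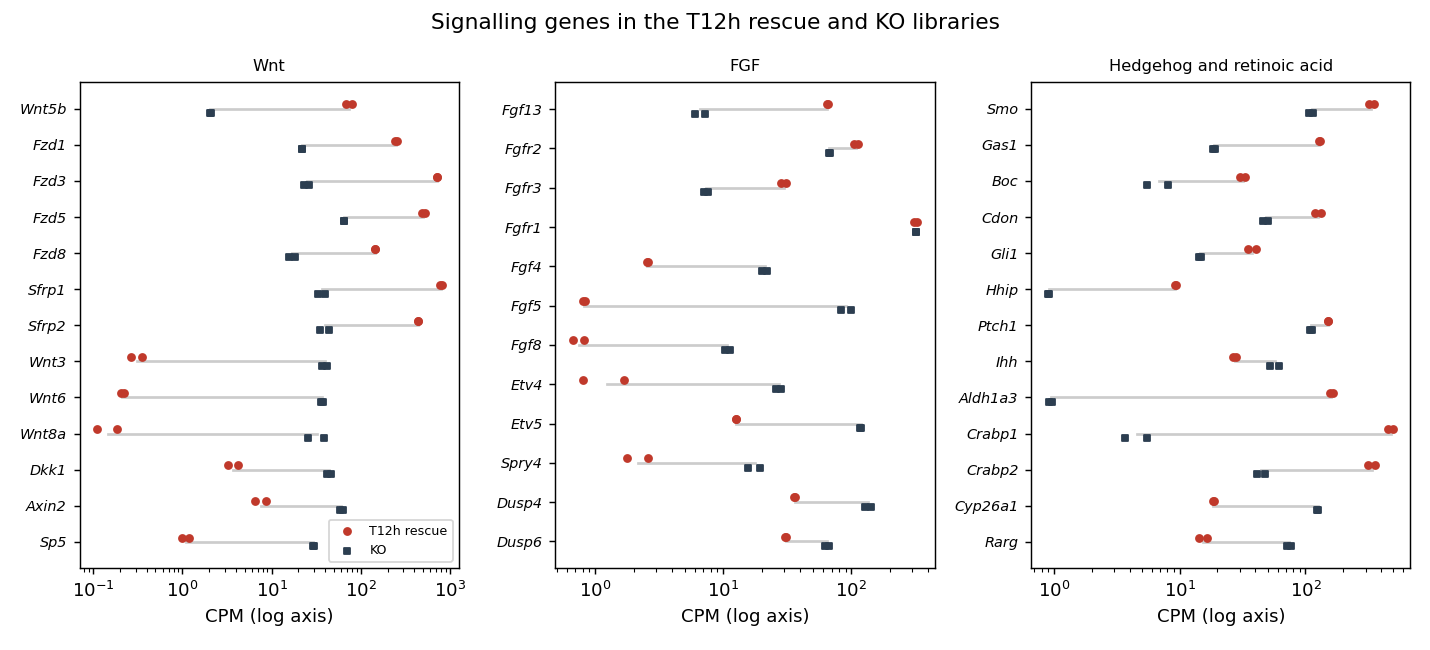
Levels in CPM on a log axis of Wnt, FGF, Hedgehog and retinoic acid genes, with circles for the libraries of the T12h rescue and squares for those of the KO. Fzd3 averages 715 CPM in the rescue and 24.7 CPM in the KO, and Fgfr1 319 CPM in the rescue and 321 CPM in the KO.

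Targets of p53 were lower in the rescue, 26 of 30 tested, with 2 higher and a median of -1.22. Trp73, a relative of p53, had 0.407 and 0.352 CPM in the rescue, against 84.4 and 66.5 CPM in the KO. Plk2, a stress-induced kinase, had 33.2 and 35.8 CPM in the rescue, against 309.8 and 306 CPM in the KO. Cdkn1a, the inhibitor of cell cycle kinases known as p21, had 83.4 and 75.7 CPM in the rescue, against 288 and 295 CPM in the KO. The apoptosis genes Apaf1, Bax and Bbc3 fell by smaller amounts, -1.49, -0.82 and -0.68 on the log2 scale. Sesn1 and Xpc were the members that rose, by 0.52 and 0.50. Trp53 itself, named after its values were seen, had 154 and 145 CPM in the rescue, against 232 and 224 CPM in the KO. In the rescue Plk2, Btg2 and Phlda3 did not pass the test against WT (edgeR's adjusted p = 0.106, 0.566 and 0.981), whereas Cdkn1a was above WT by 0.28 (edgeR's adjusted p = 0.0374).

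The Bcl2 family outside the p53 targets had 6 higher and 3 lower of 12. Those that rose include both protective and death-promoting members. Bcl2, which protects cells, had 19.7 and 18.02 CPM in the rescue, against 5.04 and 6.31 CPM in the KO, and Bcl2l11, which encodes the death-promoting Bim, had 176 and 146 CPM in the rescue, against 47.2 and 49.9 CPM in the KO. Heat shock and early response genes, which tissue dissociation can also raise, had 2 higher and 11 lower of 15. Hspb1, a small heat shock protein, had 3.35 and 3.503 CPM in the rescue, against 61.7 and 65.96 CPM in the KO. Egr1 lay the other way, with 17.9 and 18.9 CPM in the rescue, against 3.22 and 1.13 CPM in the KO. Ier3, the other member that rose, did not pass without T12h replicate a (edgeR's adjusted p = 0.116) or KO replicate b (0.108). Genes of the integrated stress response had 6 higher and 10 lower of 20, or 5 and 11 with RLE or upper-quartile scaling. Asns, a target of Atf4 that makes asparagine, had 66.7 and 72.6 CPM in the rescue, against 157 and 168 CPM in the KO. Vldlr, a lipoprotein receptor, had 31.2 and 30.1 CPM in the rescue, against 8.99 and 9.01 CPM in the KO.

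Glycolysis and hypoxia genes were higher by modest amounts, 24 of 34 tested (23 with RLE or upper-quartile scaling), with 4 lower and a median of 0.60. Bnip3, a mitophagy gene that hypoxia induces, had 46.5 and 56.1 CPM in the rescue, against 11.6 and 10.9 CPM in the KO. Vegfa, the angiogenic growth factor, had 103 and 94.97 CPM in the rescue, against 28.01 and 25.7 CPM in the KO. Both remained below WT, by log2 fold changes of -0.85 and -0.49 (edgeR's adjusted p = 1.71e-04 and 0.00313). The 4 members that fell were Ndrg1, P4ha2, Slc2a3 and Slc2a1. P4ha2, a collagen hydroxylase, had 51.2 and 53.2 CPM in the rescue, against 269 and 266 CPM in the KO. Ndrg1, which hypoxia and differentiation induce, had 17.2 and 18.8 CPM in the rescue, against 175 and 195 CPM in the KO.

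Cell cycle genes were also higher by modest amounts. Of 24 mitotic genes 19 rose (18 with RLE or upper-quartile scaling) and 1 fell, with a median of 0.58. Of 24 genes of G1/S and DNA replication 17 rose (16 with RLE scaling) and 2 fell, with a median of 0.38. Mki67, a marker of cycling cells, had 936 and 1074 CPM in the rescue, against 454 and 461 CPM in the KO. Top2a, which untangles DNA, had 1103 and 1208 CPM in the rescue, against 604 and 589.9 CPM in the KO. Aurkb, a mitotic kinase, had 144 and 138 CPM in the rescue, against 52.5 and 53.8 CPM in the KO. None of these passed the test against WT (edgeR's adjusted p = 0.443, 0.556 and 0.696). Cdc20, which activates the anaphase-promoting complex, fell by -0.45. E2f2, a factor of S phase genes, had 23.1 and 17.4 CPM in the rescue, against 4.33 and 3.43 CPM in the KO. Cdk6 had 12.2 and 15.3 CPM in the rescue, against 41.7 and 37.8 CPM in the KO. The other member that fell, Ccnd1, did not pass without any single library (edgeR's adjusted p = 0.126 to 0.223). Among 7 inhibitors of cell cycle kinases 4 rose and 3 fell, and those that fell were Cdkn1a, Cdkn2a and Cdkn2b.

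Promoters of 5 members are shown, picked because motifs known from the regulation of hypoxia and mitotic genes can be read in them. Not every promoter searched held them in the 250 bases before the start. Tpi1, Nusap1 and a window of Vegfa had 0 matches, and Cenpf and Bub1 had CCAAT but 0 of TTTGAA. Each line holds the 250 bases before a RefSeq start on GRCm38.p6, 5' to 3' on the strand of the gene. Capitals mark matches on either strand. In Bnip3 and P4ha2 these are ACGTG or GCGTG, the core letters of the hypoxia response element. In Top2a, Mki67 and Ccnb2 they are TTTGAA, the letters of the cell cycle homology region, or CCAAT, a separate motif. The TTTGAA marked in Ccnb2 lies at -167, further from the start than its CCAAT matches. Another TTTGAA of Ccnb2 lies within the 50 bases after the start, outside the bases shown. The windows are chr7:138909507-138909756 (minus strand) for Bnip3, chr11:54100674-54100923 (plus) for P4ha2, chr11:99024190-99024439 (minus) for Top2a, chr7:135716380-135716629 (minus) for Mki67 and chr9:70421555-70421804 (minus) for Ccnb2.
Bnip3: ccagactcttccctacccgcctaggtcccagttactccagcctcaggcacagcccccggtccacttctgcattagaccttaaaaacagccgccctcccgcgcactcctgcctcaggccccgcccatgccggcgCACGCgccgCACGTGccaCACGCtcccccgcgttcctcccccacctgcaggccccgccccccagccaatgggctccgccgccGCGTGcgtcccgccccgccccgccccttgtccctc
P4ha2: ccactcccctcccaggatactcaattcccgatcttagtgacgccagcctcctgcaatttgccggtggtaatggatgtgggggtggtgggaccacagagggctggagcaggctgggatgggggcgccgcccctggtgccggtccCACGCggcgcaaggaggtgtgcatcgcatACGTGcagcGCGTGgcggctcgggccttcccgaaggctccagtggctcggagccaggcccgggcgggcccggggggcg
Top2a: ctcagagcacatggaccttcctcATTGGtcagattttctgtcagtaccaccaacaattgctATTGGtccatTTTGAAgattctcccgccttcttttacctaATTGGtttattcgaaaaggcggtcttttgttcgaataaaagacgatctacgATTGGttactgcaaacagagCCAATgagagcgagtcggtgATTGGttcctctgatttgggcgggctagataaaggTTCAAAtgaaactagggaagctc
Mki67: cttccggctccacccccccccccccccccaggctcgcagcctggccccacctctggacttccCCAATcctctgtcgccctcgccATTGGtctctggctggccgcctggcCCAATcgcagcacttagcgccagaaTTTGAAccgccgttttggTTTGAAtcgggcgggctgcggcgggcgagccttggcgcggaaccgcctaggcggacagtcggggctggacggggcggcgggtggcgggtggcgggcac
Ccnb2: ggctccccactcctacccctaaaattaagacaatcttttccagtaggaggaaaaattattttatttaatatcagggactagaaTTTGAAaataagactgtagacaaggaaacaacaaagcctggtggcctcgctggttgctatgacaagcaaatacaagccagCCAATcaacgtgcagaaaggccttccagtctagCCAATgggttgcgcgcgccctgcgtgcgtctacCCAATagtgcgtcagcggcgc

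Bnip3, which rose, and P4ha2, which fell, both hold the hypoxia letters, at 5 and 3 places, and 2 of those in Bnip3 overlap as ACGTG read on both strands. Over windows of 250 bases before to 50 after the start, ACGTG or GCGTG was found in 35 of 47 windows (74.5%) of 30 glycolysis and hypoxia genes, against 43.8% of all 32851 windows. The mitotic list held the same letters in 14 of 18 windows (77.8%), so their share was not higher in the hypoxia list. TTTGAA together with CCAAT was found in 13 of the 18 windows (72.2%) of mitotic genes, in 1 of 47 (2.13%) of the glycolysis and hypoxia genes and in 6.95% of all windows. With the 250 bases before the start alone, the shares were 38.9%, 2.13% and 5.55%. Base composition was not compared between the lists, and a match describes letters, not a bound site.

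Subunits of the complexes that WDR5 serves moved both ways. Of 20 COMPASS/MLL subunits 7 rose and 9 fell (6 and 9 with RLE or upper-quartile scaling), with log2 fold changes of -0.77 to 0.78. The share that passed was 80.0%, against 64.8% of all genes. Psip1, which encodes the chromatin tether LEDGF, had 414 and 494 CPM in the rescue, against 269 and 261 CPM in the KO. Mll2, a methyltransferase gene under the older name the table uses, had 194 and 188 CPM in the rescue, against 319.9 and 329 CPM in the KO. The direct core partners Rbbp5, Ash2l and Dpy30 lay within these bounds, with Rbbp5 at 0.19 and not past the test (edgeR's adjusted p = 0.107), Ash2l at -0.19 and Dpy30 at -0.43. Of 12 subunits of other partner complexes 3 rose and 3 fell, or 2 and 4 with RLE or upper-quartile scaling, with log2 fold changes of -0.89 to 1.20. At these bounds lay Tada2a, which fell, with 35.4 and 36.7 CPM in the rescue, against 64.5 and 68.8 CPM in the KO, and Mbip, which rose, with 33.8 and 37.6 CPM in the rescue, against 16.96 and 14.1 CPM in the KO. Both encode subunits of the ATAC acetyltransferase complex. The calls of Kansl1 and Phf20 among them were lost without any single library, with edgeR's adjusted p of 0.089 to 0.141 and 0.0602 to 0.169.

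Polycomb subunits, which methylate lysine 27 of histone H3 or ubiquitinate histone H2A, had 10 higher and 12 lower of 30. With RLE or upper-quartile scaling these were 9 and 13. The share past the test was 73.33%, against 64.8% of all genes. Ezh2, the methyltransferase of dividing cells, had 277 and 301 CPM in the rescue, against 121 and 115 CPM in the KO, while its paralog Ezh1 had 25.97 and 24.1 CPM in the rescue, against 54.1 and 55.6 CPM in the KO. Cbx2 had 163 and 156 CPM in the rescue, against 64.4 and 66.2 CPM in the KO, and Cbx7, the chromobox subunit of pluripotent cells, had 12.8 and 11.3 CPM in the rescue, against 64.6 and 69.2 CPM in the KO. Members of the same subunit family thus lay on opposite sides, Ezh2 and Cbx2 higher and Ezh1 and Cbx7 lower. In the Myc family and Max network 2 rose and 6 fell of 11. Mycn, the Myc gene of neural progenitors and pluripotent cells, had 54.6 and 59.7 CPM in the rescue, against 158 and 158 CPM in the KO, and Myc rose by 0.41.

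Genes with roles in every cell moved both ways. Of 78 cytosolic ribosomal protein genes 21 rose and 21 fell (20 and 23 with RLE or upper-quartile scaling), with a median of -0.04, and many have pseudogene copies. Of 15 housekeeping genes 5 rose and 2 fell, or 5 and 4 with RLE or upper-quartile scaling. Gapdh and Ppia had means of only 0.717 and 0.112 CPM in the rescue, against 0.528 and 0.161 CPM in the KO, which is low for such genes, so the values of genes with near-identical copies are uncertain. Of 22 cholesterol synthesis genes 11 rose and 3 fell, or 9 and 3 with RLE and 8 and 3 with upper-quartile scaling. The ribosomal, housekeeping and cholesterol lists had 53.85%, 46.67% and 63.64% of members past the test, below the 64.8% of all genes.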

How the data were processed

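RNA of day 6 embryoid bodies was sequenced in 16 samples. The submitters' processing notes name mm10, Cufflinks 2.2.1, TopHat2 2.1.1, SAMtools 1.5 and deepTools. Annotation and strandedness: not given in the sources used here. Overlapping and antisense genes therefore cannot be told apart. Estimated counts per locus fill the first deposited table, per the file headers, and they had been scaled by the authors' software with a factor per column. That factor (0.63 to 1.29) was found from the values, 94% to 94.8% of which were whole multiples within 0.02, and was divided out. Per the file headers, the other deposited table holds FPKM, counts per transcript length and library size, used only for alternatives with 1 or 0.1 added before log2. The 112 companion columns entered no test, apart from a status mark by which 8 loci, 7 of them named, were left out. The 5143 loci without a name stayed out of library sizes. Where a symbol had more than 1 locus, the additional loci, 451 before filtering, were kept as separate genes. The columns name the group only. Within each group they paired by a chi-square per degree of freedom of 1.59 to 1.84 within pairs and 10.3 to 19.9 between them, and each pair was summed as technical runs of 1 library and rounded to whole counts.

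Genes were tested with edgeR 4.0.16 (R 4.3.3) by the quasi-likelihood test with TMM scaling, filterByExpr and Benjamini-Hochberg adjustment over 16130 genes. All 4 groups were in 1 fit with 4 residual degrees of freedom and a biological coefficient of variation of 12.6%. Floors of 3 counts and counting intervals cover counting error only. Scripts were tested on simulated data. The rule named the 5 markers, the 12 largest increases and decreases at 5 CPM or more without overlap, the 8 largest CPM differences each way, and per list up to 6 members by adjusted p and 3 that went against it. Other members serve as examples, picked after their values were seen. The comparison, markers and 40 lists (853 of 867 names found) were chosen with earlier results of these data known. The 13 mitochondrially encoded genes were not analysed here. Alternatives used RLE and upper-quartile scaling, other filters, DESeq2 1.42.0, limma 3.58.1 on FPKM, and leaving out libraries. Promoters are from RefSeq (GRCm38.p6), with 18 mitotic and 30 glycolysis and hypoxia genes matched.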

Additional observations from a re-analysis of the deposited data

Results flagged for a closer look

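Some genes differed between the T12h and the T48h rescue with opposite signs against the KO, which both comparisons share. They were taken among the genes the rule names where both effects passed the test at 4-fold or more and the difference itself passed it too. Against the KO, Fzd5 had a log2 fold change of 2.95 at T12h and -3.14 at T48h, a difference of 6.09. Sox3 had 3.59 at T12h and -2.06 at T48h, a difference of 5.65. The sarcomere genes Tnnt2 and Tnni1 lay the other way, Tnnt2 at -4.38 at T12h and 5.71 at T48h, a difference of -10.1, and Tnni1 at -2.28 at T12h and 6.71 at T48h, a difference of -8.99. Pecam1, an adhesion gene of endothelium, had -3.16 at T12h and 2.2 at T48h, a difference of -5.36. Foxc1, a forkhead gene of mesoderm, had -2.12 at T12h and 2.48 at T48h, a difference of -4.60.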

How the results depend on the processing

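The number of genes changed at least 2-fold was 5586, and it moved to 3274 with limma on log2(FPKM + 1), a scale that shrinks the change of low genes. Leaving out a library in turn gave 4703 to 5048 genes higher in the T12h rescue, 4144 to 4614 lower and 4931 to 5607 changed at least 2-fold. The other alternatives kept these counts within 1.5 times. RLE scaling gave 4875 higher and 5518 lower, upper-quartile scaling 4882 and 5501, and DESeq2 4819 and 5338. RLE scaling moved the median over all genes to -0.07, and of the list medians only that of the other WDR5 partner complexes changed sign with it. Across named genes and alternatives, 4362 values kept the call, 53 lost it, and 0 changed sign where either fit passed the gene. Changes of sign in genes that passed in neither fit were not counted. The share of mitotic promoters with TTTGAA and CCAAT moved as given above. No paired analysis was possible because the columns carry neither the duplicate nor the run number. With 2 libraries per group, genes near the floor of 3 counts have wide intervals.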

Other observations

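Among tested genes, 66.5% of 13993 protein-coding genes and 40.5% of 526 long noncoding RNAs passed the test between the T12h rescue and the KO. By chromosome the share lay between 57.8% on chromosome 13 and 68.0% on chromosome 8. Of 1430 loci without a RefSeq match by symbol, 61.4% passed.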
